A study of Mus musculus with 6 samples.

Results

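The genes described here are 36 genes of cholesterol and fatty acid synthesis, among 25032 genes with a read in at least 1 of 6 libraries. They were taken by gene symbol from a list drawn up with earlier results of these data known, and all 36 were listed in the deposited annotation. They comprise 5 regulators of the pathway (Srebf1, Srebf2, Scap, Insig1 and Insig2), 19 genes of the sterol branch and 12 genes of the fatty acid branch. RNA was sequenced from BV2 cells, a mouse microglial line that divides without limit in culture, in 3 libraries from cells made to overexpress GFP and 3 from cells made to overexpress TDP43-NLS. The series' design text describes the second protein as TDP-43 with a mutated nuclear localisation signal and the first group as the control. All 6 samples shared the cell line and the serum-containing medium, and the labels give no time, dose, vector or promoter for either protein. Nothing in them says that the 3 libraries of a group are separate cultures, so the p-values below take account of the scatter among these samples only, and part of it may be technical.

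Cells make cholesterol from acetyl-CoA through mevalonate, isoprenoid units, squalene and lanosterol, and make saturated fatty acids from the same acetyl-CoA through malonyl-CoA. Both branches are driven by SREBP transcription factors, which stay in the endoplasmic reticulum bound to the escort protein SCAP. When membrane sterol is high, INSIG proteins hold SCAP there; when sterol is low, SCAP carries the SREBP to the Golgi, where proteases free its active part. Microglia and macrophages use these pathways to build membranes and to balance the cholesterol they take up from debris.

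The gene of the expressed protein, Tardbp, was counted 7229, 7160 and 8154 times in the GFP libraries, against 5671, 6506 and 6633 times in those labelled TDP43-NLS. It was lower in the group labelled for its overexpression, with a log2 fold change of -0.26 (adjusted p = 0.000291, edgeR's quasi-likelihood test). Whether the expressed sequence is of mouse or another species is unknown from the sources used here. Whether its reads would be counted as Tardbp is therefore unknown too, and each group is named only by its label. Libraries held 15062131 to 18005592 counted reads. Of 11 microglial and macrophage markers all were listed, with summed levels of 1528 to 1594 FPKM in the GFP group and 1379 to 1429 FPKM in the other. The markers did not move together. Cd68 was at 698 to 724 FPKM in the GFP group and 648 to 659 FPKM in the other, without overlap. Tyrobp (297 to 349 against 259 to 281 FPKM) and Csf1r (83.3 to 88.0 against 70.6 to 76.6 FPKM) were lower too. Spi1 (120 to 125 against 99.8 to 104 FPKM) and Ptprc (12.8 to 13.3 against 12.5 to 12.7 FPKM) were also lower, while Fcer1g overlapped. P2ry12, a homeostatic microglial receptor, was at 0.384 to 0.611 FPKM in the GFP group and 0.0873 to 0.112 FPKM in the other. Cx3cr1 (1.59 to 2.02 FPKM against 2.87 to 2.96 FPKM) and Tmem119 (0.872 to 1.04 FPKM against 1.39 to 1.98 FPKM) were low but higher in the libraries labelled TDP43-NLS, as were Itgam (7.44 to 8.50 FPKM against 16.8 to 20.7 FPKM) and Aif1 (1.64 to 3.08 FPKM against 6.11 to 7.36 FPKM). Summed markers of neurons, astrocytes, endothelium and fibroblasts stayed at or below 0.360 FPKM in every library, those of endothelium being at 0.0777 to 0.153 FPKM and 0.266 to 0.360 FPKM. The oligodendrocyte list, almost all of it Cnp, summed to 10.1 to 10.9 FPKM and 12.4 to 13.0 FPKM. What part these differences have in the results was not tested. GFP library 2 stood apart, since chi-square over its degrees of freedom was 6.67 and 6.68 for its counts against GFP libraries 1 and 3, but 1.18 between those 2 and 1.79 to 2.56 within the other group. Calls and counts of members that change without it are given beside the result. In such bulk samples, fewer cells of a type and less RNA per cell cannot be told apart.

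Promoter sequence is shown first for 5 members, chosen after their values were seen: Hmgcs1, Cyp51 and Insig1, whose RNA fell in the libraries labelled TDP43-NLS, and Tm7sf2 and Msmo1, whose RNA rose. Each run is the 150 bases before the annotated start, taken from RefSeq on build GRCm38.p6, 5′ to 3′ on the gene's strand. The positions are chr13:119690201-119690350 (plus strand) for Hmgcs1, chr5:4104698-4104847 (minus strand) for Cyp51, chr5:28071262-28071411 (plus strand) for Insig1, chr19:6067851-6068000 (minus strand) for Tm7sf2 and chr8:64733579-64733728 (minus strand) for Msmo1. Capitals mark the CCAAT box, the sterol core TCACNCCAC or the E-box CACGTG, each on either strand.
Hmgcs1: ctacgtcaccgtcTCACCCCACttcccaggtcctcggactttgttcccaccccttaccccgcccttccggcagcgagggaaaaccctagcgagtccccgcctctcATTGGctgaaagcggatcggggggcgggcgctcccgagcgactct
Cyp51: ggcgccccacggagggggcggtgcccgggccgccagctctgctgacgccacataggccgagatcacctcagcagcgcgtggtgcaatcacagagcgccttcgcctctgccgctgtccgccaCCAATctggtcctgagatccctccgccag
Insig1: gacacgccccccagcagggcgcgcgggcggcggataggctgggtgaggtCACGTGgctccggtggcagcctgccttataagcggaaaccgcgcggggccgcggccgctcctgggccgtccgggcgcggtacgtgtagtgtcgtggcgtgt
Tm7sf2: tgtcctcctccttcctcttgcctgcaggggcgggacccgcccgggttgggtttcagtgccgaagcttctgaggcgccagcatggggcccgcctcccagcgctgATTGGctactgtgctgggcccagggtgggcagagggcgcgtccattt
Msmo1: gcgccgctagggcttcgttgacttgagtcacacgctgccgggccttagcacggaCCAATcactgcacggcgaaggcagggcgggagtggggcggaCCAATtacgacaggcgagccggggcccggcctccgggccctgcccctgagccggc
The core TCACNCCAC belongs to the classical sterol response element bound by SREBPs. NF-Y, a factor known to act beside SREBPs, binds the CCAAT box. E-boxes are bound by many factors of the basic helix-loop-helix class.

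The promoter table held 28 of the 36 members, namely 5 regulators, 15 sterol and 8 fatty acid genes, each with a window of 300 bases. CCAAT, on either strand, lay in 23 of the 28 (82.1%), in 14 of the 15 sterol genes (93.3%) and in 5 of the 8 fatty acid genes (62.5%). Among all 27025 genes with a promoter it lay in 41.1%, and among tested genes with a promoter in 43.1%. A gene with several promoters was counted if any of them held the motif. The box did not separate members by their change, since it was present in 14 of the 17 that fell, in all 3 that rose and in 6 of the 7 that were not called. The core TCACNCCAC was found in Hmgcs1 alone, against 1.44% of all genes with a promoter and 1.34% of tested ones. The shorter CACCCCAC, which overlaps it, was found in Hmgcs1 and Acat2, against 3.30% and 3.72%. CACGTG was found in 6 members (Scap, Insig1, Hsd17b7, Sc5d, Dhcr7 and Elovl5), which is 21.4% against 11.9% of tested genes. The longer palindrome TCACGTGA, which contains CACGTG, was in no member's window, against 2.25% of tested genes. All searches covered both strands and counted only exact matches within these windows. A member without a match may therefore still hold a site that departs from the motif or lies outside the window.

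Most of the changed members were lower in the libraries labelled TDP43-NLS. Of the 34 members with enough reads to test, 18 fell, 5 rose and 11 were not called, at an adjusted p under 0.05. Among all 13199 tested genes, 28.2% fell, 29.3% rose and 57.5% were called in either direction, against 52.9% of the tested members that fell and 67.6% that were called. The members' median log2 fold change was -0.19, against 0.0027 over all tested genes, and single members ran from -0.97 (Cyp51) to 0.96 (Tm7sf2). Groups did not overlap for 25 members, 19 of them lower, where 63.2% of all tested genes did not overlap and 31.2% did not overlap and were lower. Scd1 and Fads2 had too few reads and were not tested. Without GFP library 2, 19 members fell and 8 rose.

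**Figure D1:**
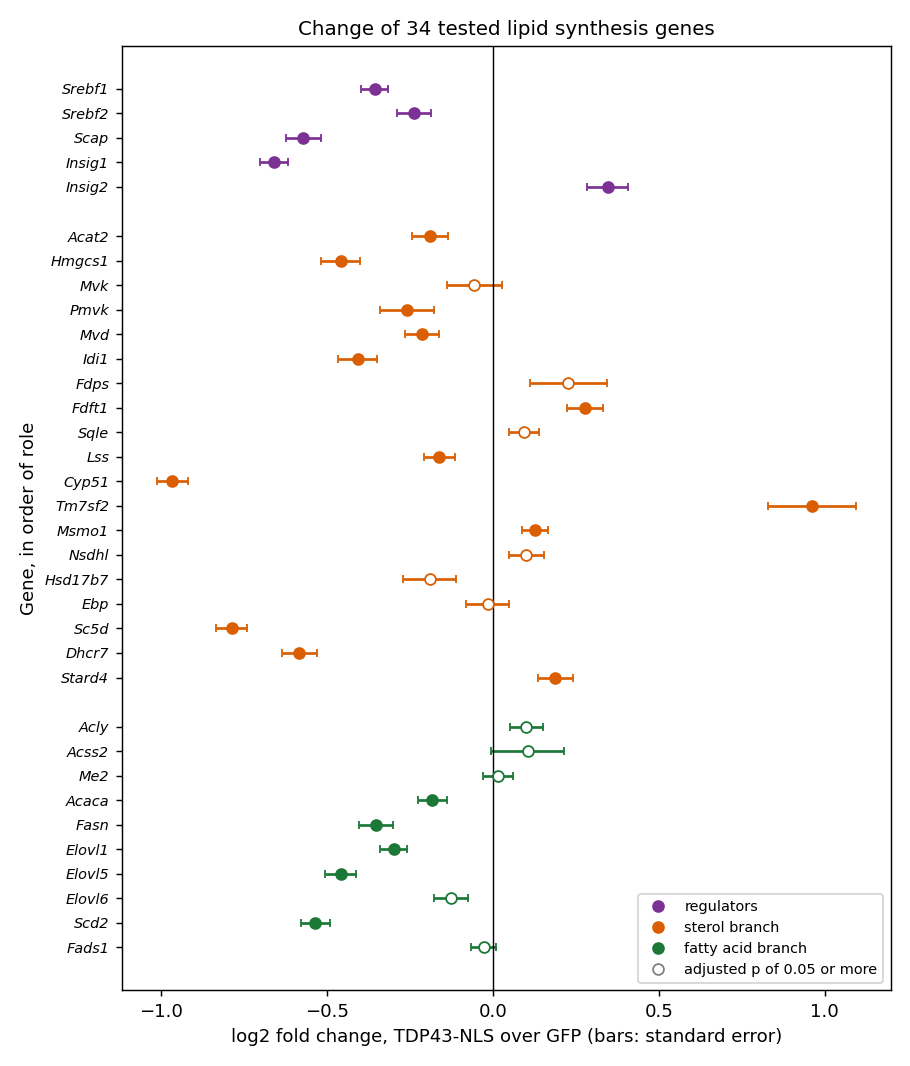
Log2 fold change of each of the 34 tested members (libraries labelled TDP43-NLS minus GFP, edgeR, bars of 1 standard error), grouped into regulators, sterol branch and fatty acid branch. Cyp51 at -0.97 and Tm7sf2 at 0.96 are the extremes, and the fatty acid genes reach 0.10 at most.

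The regulators split between 4 that fell and 1 that rose. That is 100% called and 80% lower, against 57.5% and 28.2% of all tested genes. Insig1, whose protein retains SCAP in the endoplasmic reticulum and which is itself an SREBP target, stood at 149, 151 and 153 CPM (counts relative to the scaled library total) in the GFP libraries and at 97.5, 96.0 and 93.1 CPM in those labelled TDP43-NLS. The groups did not overlap, and the level was 36.7% lower (log2 fold change -0.66 ± 0.04 SE, adjusted p = 2.17e-08). Insig2, a related retention protein that is not a classical SREBP target, moved the other way, from 30.7, 27.5 and 30.4 CPM to 37.3, 36.4 and 38.9 CPM (log2 fold change 0.35 ± 0.06, adjusted p = 0.000325). All libraries labelled TDP43-NLS lay above all GFP libraries for Insig2. Per length, Insig1 was the more abundant of the pair in both groups, at 49.4 ± 0.713 and 30.5 ± 0.704 FPKM against 8.61 ± 0.490 and 10.7 ± 0.360 FPKM for Insig2 (SD, n = 3 libraries each). Insig1 (ENSMUSG00000045294) lies on chromosome 5, 28276361 to 28283660, and Insig2 (ENSMUSG00000003721) on chromosome 1, 121232082 to 121260318, both on GRCm39.

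Srebf1, which encodes the SREBP form that favours fatty acid genes, had 239, 256 and 243 CPM in the GFP libraries and 192, 191 and 193 CPM in the others. It was 21.9% lower (log2 fold change -0.36 ± 0.04, adjusted p = 6.84e-06), and its 3 values labelled TDP43-NLS lay within 2 CPM of each other, all below the GFP group. Srebf2, which encodes the form that favours sterol genes, had 334, 383 and 342 CPM against 299, 307 and 292 CPM. The fall was smaller (log2 fold change -0.24 ± 0.05, adjusted p = 0.0014), and GFP library 2 was the highest. Scap, the SREBP escort, went from 82.3, 89.8 and 84.8 CPM to 60.2, 57.8 and 55.0 CPM. The groups stood well apart (log2 fold change -0.57 ± 0.05, adjusted p = 9.03e-07). Levels per length were 44.2 ± 1.71 and 33.7 ± 0.127 FPKM for Srebf1, and 49.8 ± 3.81 and 41.1 ± 1.06 FPKM for Srebf2 (SD, n = 3 each). Scap was read less per length, at 11.7 ± 0.546 and 7.65 ± 0.333 FPKM.

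**Figure D2:**
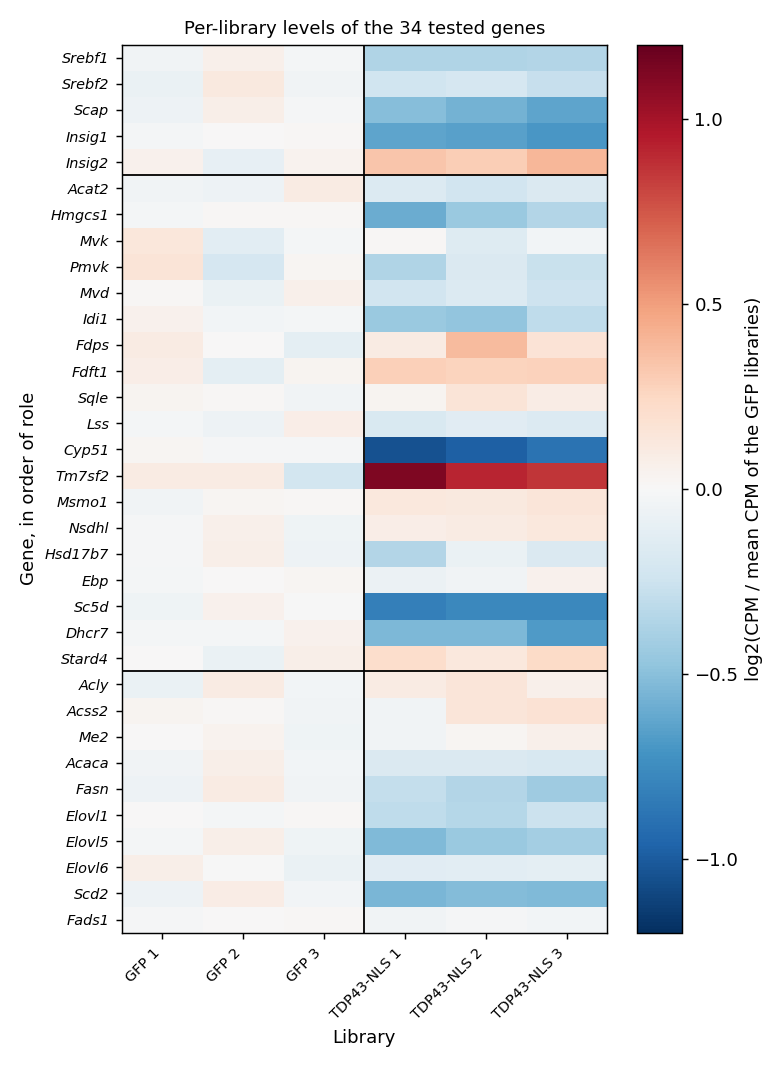
Heat map of log2(CPM over the mean CPM of the GFP libraries) for the 34 tested members (rows, in order of role) in each of the 6 libraries (columns), blue for lower and red for higher. Insig1, Cyp51, Sc5d, Dhcr7 and Scd2 are blue and Tm7sf2 and Insig2 red in all 3 libraries labelled TDP43-NLS.

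In the sterol branch 9 of 19 genes fell (47.4%, against 28.2% of all tested genes), 4 rose and 6 were not called, the median log2 fold change being -0.16. The branch had 68.4% called, against 57.5% of all tested genes. Without GFP library 2, 9 fell and 6 rose. Over the 17 sterol genes off chromosomes 9, 12, 16 and 17, 7 fell and the median was -0.06. Of the 7 members that carry acetyl-CoA to farnesyl diphosphate, 5 fell, and Mvk and Fdps were not called. Hmgcs1, the synthase that makes HMG-CoA, had 81.4, 83.0 and 83.1 CPM in the GFP libraries and 54.6, 60.5 and 64.7 CPM in the others. Its GFP values were close together and all above the scattered values labelled TDP43-NLS (log2 fold change -0.46 ± 0.06, adjusted p = 1.79e-05). Idi1, the isomerase that interconverts the isoprenoid units, fell from 52.9, 49.9 and 50.3 CPM to 37.4, 36.7 and 41.3 CPM (log2 fold change -0.41 ± 0.06, adjusted p = 5.25e-05).

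Acat2, Pmvk and Mvd fell by less. Acat2, the cytosolic thiolase that starts the pathway, had a log2 fold change of -0.19 (adjusted p = 0.00849). Mvd, the mevalonate diphosphate decarboxylase, had -0.21 (adjusted p = 0.00264). Pmvk, the phosphomevalonate kinase, was called at -0.26 (adjusted p = 0.0141) although its groups overlapped, with 69.5, 54.3 and 63.4 CPM against 48.5, 55.5 and 52.0 CPM. Its lowest GFP value, in library 2, lay below the highest of the other group. The call of Pmvk was lost without GFP library 1 (adjusted p = 0.0706), without library 1 labelled TDP43-NLS (adjusted p = 0.0943) and without library 3 labelled TDP43-NLS (adjusted p = 0.0639). Acat2 lost its call without GFP library 3 (adjusted p = 0.0528) and without library 2 labelled TDP43-NLS (adjusted p = 0.0601). Mvk, the mevalonate kinase that acts before Pmvk, overlapped between the groups (log2 fold change -0.06 ± 0.08, adjusted p = 0.586).

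Fdps, the farnesyl diphosphate synthase, was little read under its own identifier. It had 317 reads over the GFP libraries and 372 over the others, with a log2 fold change of 0.23 ± 0.12 (adjusted p = 0.110). A processed pseudogene of it on chromosome 10, Gm3571, collected 1478 and 1437 reads, more than Fdps itself (log2 fold change -0.04, adjusted p = 0.594). The sources used here do not say how reads matching both were assigned, so the level and change of Fdps are uncertain.

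Around the branch point to sterols the genes did not share a direction. Fdft1, squalene synthase, had 77.4, 67.3 and 74.8 CPM in the GFP libraries and 89.1, 88.2 and 88.8 CPM in those labelled TDP43-NLS. It rose without overlap (log2 fold change 0.28 ± 0.05, adjusted p = 0.000685). Its 3' neighbour on the opposite strand, Ctsb, shares 774 bases with it and went from 209289 to 265559 reads summed over a group, while Fdft1 had 3655 and 4437. The sources used here do not say whether strand was used in counting, and the part of Ctsb reads in the value of Fdft1 was not tested. Sqle, the squalene epoxidase, was not called (log2 fold change 0.09 ± 0.04, adjusted p = 0.088) but was called higher without GFP library 2 (0.10, adjusted p = 0.0315) and without library 1 labelled TDP43-NLS (0.13, adjusted p = 0.0386). Lss, the cyclase that forms lanosterol, fell slightly, from 116, 113 and 125 CPM to 104, 108 and 105 CPM (log2 fold change -0.16 ± 0.05, adjusted p = 0.0106). The call of Lss was lost without GFP library 3 (adjusted p = 0.0655), and without library 1 or 3 labelled TDP43-NLS (adjusted p = 0.0556 and 0.0542).

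The members that act after lanosterol did not share a direction, though the largest riser among them, Tm7sf2, was read at a low level. Cyp51, the lanosterol demethylase and the first enzyme on lanosterol, showed the largest fall of the tested members. It had 254, 247 and 247 CPM in the GFP libraries and 121, 127 and 135 CPM in the others. The highest value labelled TDP43-NLS was far below the lowest GFP value, and the level was 48.8% lower (log2 fold change -0.97 ± 0.05, adjusted p = 1.68e-09). Per length it went from 57.2 ± 0.943 to 28.5 ± 1.65 FPKM (SD, n = 3 each). Cyp51 (ENSMUSG00000001467) lies on the minus strand of chromosome 5, 4131145 to 4154746 on GRCm39, and shares 166 bases with Akap9 on the opposite strand, which had 7176 and 4487 reads over the groups.

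Tm7sf2, a sterol reductase that acts on the product of Cyp51, showed the largest rise. Its level was low, at 4.18, 4.20 and 3.36 CPM in the GFP libraries and 8.49, 7.35 and 7.08 CPM in the others. All values labelled TDP43-NLS lay above all GFP values (log2 fold change 0.96 ± 0.13, adjusted p = 3.31e-05). These rest on 195 and 380 reads over the groups, and Tm7sf2 shares 532 bases with Vps51 on the same strand, which had 2348 and 2009 reads. Lbr, which has the same reductase activity and was named after its values were seen, was far more abundant per length, at 23.3 ± 0.114 and 21.1 ± 0.781 FPKM against 0.900 ± 0.111 and 1.71 ± 0.165 FPKM for Tm7sf2. Lbr was slightly lower (log2 fold change -0.11 ± 0.04, adjusted p = 0.0476).

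The demethylation genes that follow showed small differences. Msmo1, the sterol methyl oxidase, rose from 138, 145 and 144 CPM to 155, 154 and 157 CPM (log2 fold change 0.13 ± 0.04, adjusted p = 0.0164), and lost its call without GFP library 1 (adjusted p = 0.0776). Scaled by library totals alone its adjusted p was 0.0755, with DESeq2's Wald test 0.0707 and with limma on log2(FPKM + 1) 0.0639. Nsdhl, the dehydrogenase of the same complex, was at 0.10 ± 0.05 (adjusted p = 0.122), and at 0.13 without GFP library 2 (adjusted p = 0.0396). Hsd17b7, the ketoreductase of that complex, was at -0.19 ± 0.08 (adjusted p = 0.0529), and was called lower when scaled by library totals alone (adjusted p = 0.0255) and without library 2 labelled TDP43-NLS (adjusted p = 0.0296). Ebp, the isomerase that follows, overlapped between the groups (log2 fold change -0.02 ± 0.06, adjusted p = 0.850).

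The late steps Sc5d and Dhcr7 fell. Sc5d, the sterol desaturase, had 103, 110 and 107 CPM in the GFP libraries and 60.6, 62.5 and 62.6 CPM in the others. It was 42.1% lower, and its 3 values labelled TDP43-NLS were close together (log2 fold change -0.79 ± 0.05, adjusted p = 1.18e-08). Dhcr7, the reductase that makes cholesterol from its last precursor in this route, went from 88.6, 88.7 and 93.2 CPM to 62.2, 62.1 and 56.3 CPM (log2 fold change -0.58 ± 0.05, adjusted p = 6.92e-07). Stard4, a carrier of cholesterol between membranes, rose from 56.9, 54.0 and 59.7 CPM to 65.8, 62.1 and 66.7 CPM (log2 fold change 0.19 ± 0.05, adjusted p = 0.00915).

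In the fatty acid branch 5 of 10 tested genes fell, 5 were not called and 0 rose, the median log2 fold change being -0.15. The 50% called was no more than the 57.5% of all tested genes, while the share that fell was above the 28.2% of all tested genes. Without GFP library 2, 6 fell and 1 rose. At an unadjusted p under 0.05 the number that rose was also 0, as it was with DESeq2's Wald test and with limma on log2(FPKM + 1). The genes that supply precursors were not called. Acly, which makes cytosolic acetyl-CoA from citrate, had 384, 434 and 395 CPM against 432, 447 and 421 CPM. The groups overlapped through GFP library 2 (log2 fold change 0.10 ± 0.05, adjusted p = 0.0986), and without that library Acly was called higher, at 0.15 (adjusted p = 0.000248). Acss2, which makes acetyl-CoA from acetate, was low at 0.620 and 0.647 FPKM, lies across 22544 bases of Gss on the opposite strand, and was at 0.10 ± 0.11 (adjusted p = 0.436). Me2, the mitochondrial malic enzyme, was at 0.01 ± 0.05 (adjusted p = 0.810).

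Both genes of the synthesis steps themselves fell. Acaca, the carboxylase that commits acetyl-CoA to fatty acids, went from 163, 175 and 164 CPM to 148, 148 and 146 CPM (log2 fold change -0.18 ± 0.04, adjusted p = 0.00256). Fasn, the fatty acid synthase, had 911, 1022 and 928 CPM against 781, 749 and 711 CPM. The groups were apart and GFP library 2 was again the highest (log2 fold change -0.35 ± 0.05, adjusted p = 5.14e-05). Per length Fasn was at 88.2 ± 5.70 and 67.4 ± 3.10 FPKM (SD, n = 3 each), below only Scd2 among the members in the GFP group and below Scd2 and Acly in the other.

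Stearoyl-CoA desaturase RNA came almost wholly from a single gene. Scd2, whose enzyme makes monounsaturated fatty acids, had 1607, 1778 and 1636 CPM in the GFP libraries and 1141, 1164 and 1156 CPM in the others. It was 31.0% lower, with the values labelled TDP43-NLS within a narrow band below the GFP group (log2 fold change -0.54 ± 0.04, adjusted p = 2.56e-07). At 310 ± 17.6 and 209 ± 2.51 FPKM, Scd2 was the most abundant of the 36 genes per length in both groups. Scd1, the liver and fat counterpart, had 6, 2 and 11 reads against 4, 7 and 6 reads. Other copies of the family held few reads as well, Scd3 with 9 and 10 and Scd4 with 7 and 2 over the groups. Scd2 (ENSMUSG00000025203) lies on chromosome 19, 44282113 to 44295303 on GRCm39.

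Elongation genes fell in 2 of 3 cases, where 28.2% of all tested genes fell. Elovl5, which lengthens polyunsaturated chains, had 180, 192 and 177 CPM against 127, 135 and 138 CPM, without overlap (log2 fold change -0.46 ± 0.05, adjusted p = 2.61e-06). Elovl1, which lengthens very long saturated chains, had 176, 173 and 177 CPM against 142, 139 and 147 CPM (log2 fold change -0.30 ± 0.04, adjusted p = 3.27e-05). Elovl1 shares 53 bases with Cdc20 on the opposite strand. Elovl6, which lengthens palmitate, was at -0.13 ± 0.05 (adjusted p = 0.0515), just outside the threshold although its groups did not overlap, and was called without GFP library 2 (adjusted p = 0.0341) and without GFP library 3 (adjusted p = 0.0275). Fads1 and Fads2, the desaturases of polyunsaturated chains, differed in level. Fads1 was at 48.0 ± 0.347 and 45.9 ± 0.641 FPKM with no called difference (log2 fold change -0.03 ± 0.04, adjusted p = 0.548). Fads2 had 0 reads over the GFP libraries, which allows up to 0.0600 CPM, and 1 read over the others. That limit covers counting error only.

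**Figure D3:**
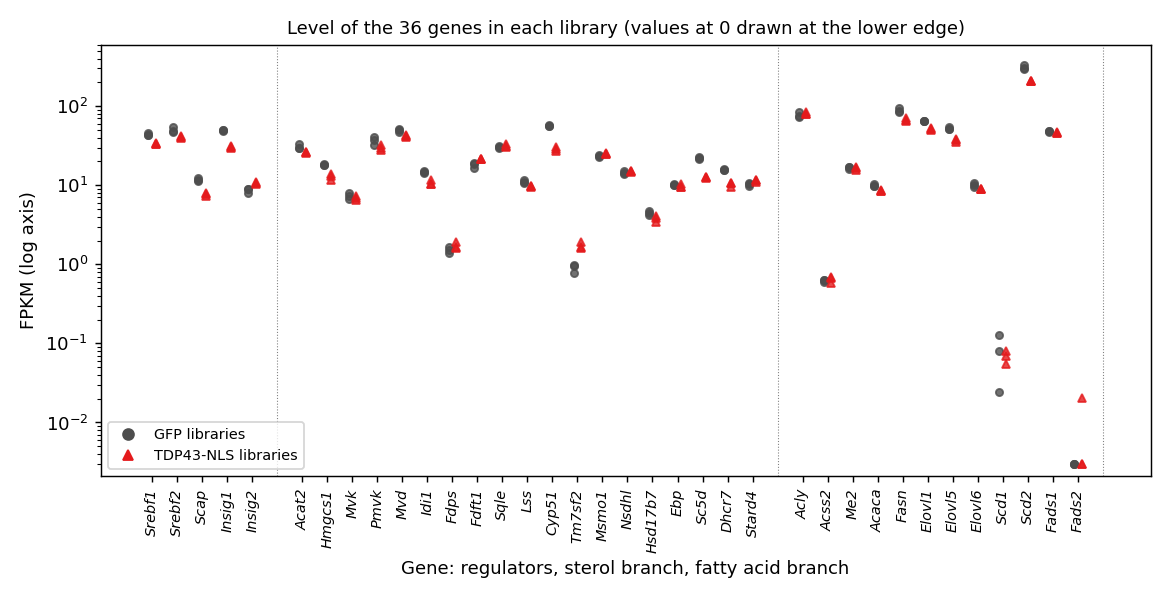
FPKM of each of the 36 members on a log axis, with 1 point per library (circles for GFP, triangles for TDP43-NLS) and values at 0 drawn at the lower edge. Scd2 is highest, with means of 310 and 209 FPKM, and Fads2, Scd1, Acss2 and Tm7sf2 are the 4 lowest genes in the GFP group.

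Levels added over genes give the RNA of each branch per length, dominated by its most abundant members and given with no test. The 36 genes summed to 1221 ± 28.7 FPKM in the GFP group and 961 ± 10.3 FPKM in the other, 21.2% lower (SD, n = 3 each). Regulators summed to 159, 170 and 162 FPKM against 124, 125 and 122 FPKM. Sterol genes summed to 383, 368 and 382 FPKM against 304, 315 and 315 FPKM. Fatty acid genes summed to 658, 715 and 665 FPKM against 523, 532 and 524 FPKM. None of the 3 sums overlapped between the groups, and they were 24.5%, 17.6% and 22.5% lower. Scd2 alone had means of 310 and 209 FPKM. These FPKM do not carry the TMM scaling used for CPM. With limma on log2(FPKM + 1) the median log2 fold change over all tested genes was -0.025, against 0.0027 in the edgeR fit.

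Several of the strongest falls lay among genes that were lower too. An alternative chosen after the data were seen compared each member with its neighbours. For each member the median log2 fold change was taken over other tested genes within 10 Mb with a log2 CPM above 3. Around Cyp51 it was -0.57 over 24 genes, 22 of them below 0, which leaves a difference of -0.40 for Cyp51. Around Sc5d, on chromosome 9, it was -0.37 over 75 genes, 65 of them below 0, which leaves -0.41. Over all tested genes of chromosome 9 above the same cut, the median was -0.32. Scap and Elovl5 are on chromosome 9 as well, with neighbour medians of -0.28 and -0.35, which leaves -0.29 and -0.11. Neighbours of Insig1 were centred at 0.00, those of Dhcr7 at 0.10 and those of Scd2 at -0.10. After subtraction 24 of the 34 members were below 0, against 23 before, the median was -0.14, and no called member changed direction. Without the members on chromosomes 9, 12, 16 and 17, 14 of 30 fell and 5 rose, where 28.2% and 29.3% of all tested genes did. That choice kept the region around Cyp51. It also kept chromosome 13, whose median of -0.13 was larger in size than the 0.09 of chromosome 17. What the neighbours contribute to each gene's value was not tested.

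**Figure D4:**
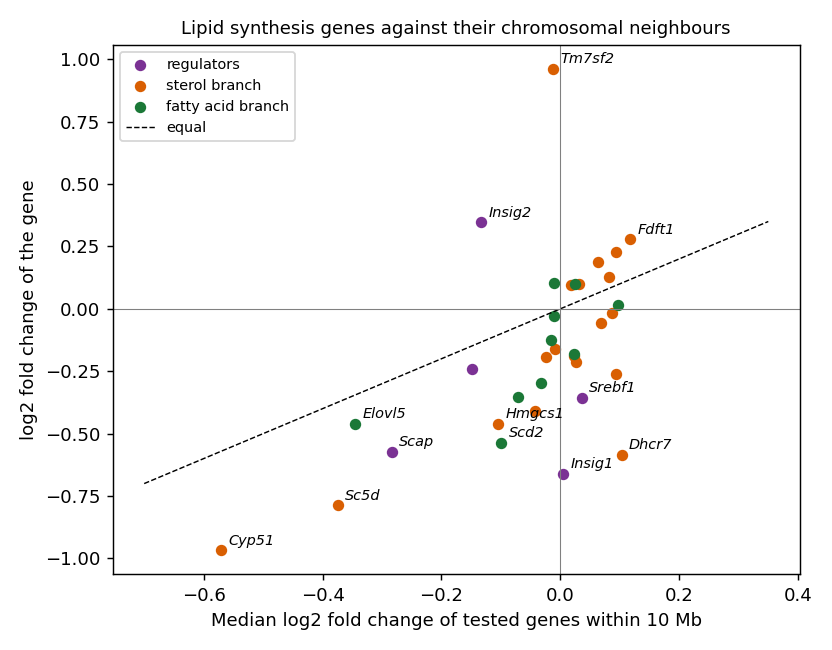
Log2 fold change of each tested member (vertical) against the median log2 fold change of the other tested genes within 10 Mb of it (horizontal), with a line of equal values. Only neighbours with a log2 CPM above 3 were used. Cyp51 at -0.97 and Sc5d at -0.79 lie below neighbour medians of -0.57 and -0.37, while Insig1 at -0.66 lies over a neighbour median of 0.00.

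The genes around the synthesis pathway were described from lists chosen with earlier results in view. Of 12 tested genes of other sterol steps, uptake and storage, 7 fell and 4 rose, and their median log2 fold change was -0.13. That is 91.7% called and 58.3% lower, against 57.5% and 28.2% of all tested genes. The median was -0.05 less the chromosome medians and -0.08 less the medians of neighbours within 10 Mb. Mylip, a ubiquitin ligase that limits lipoprotein uptake, fell (log2 fold change -1.12 ± 0.08, adjusted p = 5.60e-08), as did Lipa, the lysosomal acid lipase (-0.73 ± 0.04, adjusted p = 5.71e-09).

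Among the 4 genes of this list that rose, Soat2, an enzyme that esterifies cholesterol for storage, had 11.3, 12.4 and 10.6 CPM in the GFP libraries and 32.6, 33.5 and 34.3 CPM in the others. The groups were far apart (log2 fold change 1.55 ± 0.07, adjusted p = 1.34e-09). Npc2, which hands sterol out of the lysosome, was at 0.56 ± 0.05 (adjusted p = 2.53e-07).

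The machinery that cleaves and degrades SREBP and its partners had 1 gene higher, 1 lower and 6 not called of 8, with a median of 0.01. The 25% called was below the 57.5% of all tested genes, and only 1 call was left without GFP library 1 or without library 1 labelled TDP43-NLS. Mbtps1, the first of the Golgi proteases that free SREBP, was at 0.12 ± 0.04 (adjusted p = 0.0223), and was not called by limma or by DESeq2's Wald test. Mbtps2, the protease that cuts next, was at 0.01 ± 0.05 (adjusted p = 0.832). Erlin1, a membrane protein of the endoplasmic reticulum that takes part in protein degradation there, fell (-0.22 ± 0.06, adjusted p = 0.00536).

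Side branches that use isoprenoids had 2 genes higher and 4 lower of 11 tested, or 54.5% called against 57.5% of all tested genes. DESeq2's Wald test called 3, as did edgeR without library 2 labelled TDP43-NLS, and edgeR without GFP library 2 called 8. Rabggta, a subunit of the enzyme that attaches geranylgeranyl groups to Rab proteins, went from 24.6, 25.2 and 25.5 CPM to 52.1, 50.3 and 49.7 CPM (log2 fold change 1.01 ± 0.05, adjusted p = 4.28e-09). Nus1, of dolichol synthesis, was at 0.11 (adjusted p = 0.0426). The 4 lower genes were Pggt1b (-0.37), Fnta (-0.23) and Fntb (-0.16), all subunits of protein prenyltransferases, and Ggps1 (-0.19, adjusted p = 0.0467), which makes geranylgeranyl diphosphate and whose groups overlapped.

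Other genes of fatty acid synthesis, elongation and activation had 8 higher and 6 lower of 20 tested, with a median of 0.02. That is 70% called and 30% lower, against 57.5% and 28.2% of all tested genes, and the median was 0.11 less the neighbours' medians. Me1, the cytosolic malic enzyme that makes NADPH for synthesis, had 89.6, 83.6 and 86.4 CPM against 127, 125 and 130 CPM. It rose without overlap (log2 fold change 0.56 ± 0.04, adjusted p = 2.22e-07). Tecr, the last enzyme of each elongation cycle, rose too (0.51 ± 0.05, adjusted p = 1.19e-06), as did the acyl-CoA synthetases Acsl1 (0.44 ± 0.04) and Acsl4 (0.35 ± 0.05). Elovl7, an elongase of long saturated chains, fell from a low level of 1.89 FPKM to 0.879 FPKM (-1.07 ± 0.13, adjusted p = 1.16e-05), and Hacd1, a dehydratase of elongation, fell as well (-0.63 ± 0.07). Acacb, the carboxylase form of the mitochondrial surface, had 11, 9 and 3 reads against 5, 4 and 2 reads and was not tested.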

How the data were processed

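RNA was measured in 6 libraries, with groups taken from the sample titles. The authors deposited raw read counts per gene (55359 genes) and FPKM values, which scale those counts by gene length and depth. Bowtie2 2.2.3, HTSeq 0.6.0, HISAT2 2.1.0 and the build GRCm39 are listed per the submitters' processing notes; the sources used here give no roles, strand use or treatment of multiply matching reads. Positions are those of the deposited annotation.

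Counts were tested with edgeR 4.0.16 in R 4.3.3: filterByExpr (10 reads, 15 in total), TMM scaling and the two-sided quasi-likelihood test with group as the only term, adjusted by Benjamini-Hochberg over 13199 genes, threshold 0.05. A gene is said to have risen or fallen only past that threshold. Each SE is the absolute log2 fold change over the root of F. CPM use TMM-scaled totals. Chromosome and neighbour medians used only tested genes with a log2 CPM above 3. Alternatives were DESeq2 1.42.0 and its size factors, library totals, no low-count filter, limma 3.58.1 on log2(FPKM + 1) or log2(FPKM + 0.1), a replicate block, a test against 0.5, each library left out, and chromosome or neighbour medians subtracted. On counts simulated for these 13199 genes, the test recovered 40.8% of planted changes at 1.25-fold, 83.3% at 1.5-fold, 85.7% at 2-fold and 100% at 4-fold. It made 8 false calls there, and 2 calls where no change was planted. Only 48 to 50 changes were planted at each fold, while 7588 genes were called in the data, so these shares may not carry over.

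The 36 members and all lists were chosen with earlier results of these data known. Named genes are all members, up to 6 called genes by adjusted p from each of 6 further lists, and Mbtps1, Mbtps2, Acacb, Me1 and Elovl7; Tardbp was added as the targeted gene, and Lbr, pseudogenes, gene copies and overlapping neighbours after values were seen. Some genes that the rule names are not reported here. Replicate numbers were checked for pairing by the correlation of same-numbered libraries' deviations from their group means.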

Additional observations from a re-analysis of the deposited data

How the results depend on the processing

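Of the 23 called members, 18 kept their direction and call in every alternative test except the one against a log2 fold change of 0.5; the exceptions were Acat2, Pmvk, Lss, Msmo1 and Stard4. Against 0.5, Cyp51, Sc5d and Insig1 stayed lower and Tm7sf2 higher. That left 3 members lower and 1 higher, or 1 regulator lower and 0 higher, 2 sterol genes lower and 1 higher, and 0 fatty acid genes lower. At an unadjusted p under 0.05 that same test gave 0 regulators higher and 0 fatty acid genes lower, while DESeq2 without the threshold gave 1 and 5. Of the further lists it called 4 genes of other sterol steps, 0 of SREBP machinery (0 unadjusted), 1 of isoprenoid branches, 2 of other fatty acid synthesis, 3 of glycerolipid assembly and 3 of oxidation; its stricter hypothesis is the reason. With limma on log2(FPKM + 1) without a filter on low values, 3 members and 2 sterol genes were higher, and with no low-count filter 1 fatty acid gene, Acly, was higher. SREBP machinery had 1 call under library totals, DESeq2 and the 3 limma settings, and isoprenoid branches 3 under DESeq2; the cause was not tested. Leaving out 1 library gave 16 to 19 members lower and 4 to 8 higher (8 without GFP library 2), 7 to 9 and 3 to 6 sterol genes, 5 to 6 and 0 to 1 fatty acid genes, 1 to 2 calls in SREBP machinery and 3 to 8 in isoprenoid branches. Members that changed sign were not called: with a library left out, the Mvk log2 fold change ranged from -0.119 to 0.0138, the Ebp log2 fold change from -0.0429 to 0.0138 and the Me2 log2 fold change from -0.0137 to 0.0463. The Me2 log2 fold change was -0.0223 under library totals and -0.0218, -0.0230 and -0.0218 under the limma settings.

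Adding the replicate number as a block gave 19 members lower and 5 higher, Hsd17b7 being added (adjusted p = 0.0444). Same-numbered libraries did not deviate together (r = -0.016, -0.011 and 0.0019, across genes, which are not independent). With 3 libraries per group, such values cannot tell whether same-numbered libraries shared a culture or a day. The samples were treated as unpaired. At this depth Scd1 and Fads2 could not be tested.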

Other observations

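Glycerolipid assembly, which stores fatty acids as triglyceride and builds them into membranes, had 5 genes higher and 3 lower of 10 tested, or 80% called and 30% lower against 57.5% and 28.2% of all tested genes. The median log2 fold change was 0.07, or -0.03 less the chromosome medians and 0.03 less the medians of neighbours within 10 Mb. Dgat2, which makes triglyceride from diglyceride, had 17.4, 18.4 and 17.3 CPM in the GFP libraries and 58.0, 60.7 and 60.2 CPM in those labelled TDP43-NLS (log2 fold change 1.75 ± 0.06, adjusted p = 3.80e-11, edgeR). The groups were far apart. Agpat4 (0.79 ± 0.08) and Lpin2 (0.59 ± 0.05) rose, while Agpat2 (-0.72 ± 0.05), Agpat5 (-0.52 ± 0.05) and Gpam, which starts the route (-0.43 ± 0.06), fell.

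Fatty acid oxidation, the opposite of synthesis, had 5 genes higher and 7 lower of 16 tested, or 75% called and 43.8% lower against 57.5% and 28.2% of all tested genes. The median was -0.12 but changed sign to 0.06 less the chromosome medians and 0.05 less the medians of neighbours. Cpt1a, the gate of fatty acid entry into mitochondria, went from 14.6, 15.3 and 15.7 CPM to 8.42, 8.19 and 9.03 CPM, without overlap (-0.83 ± 0.09, adjusted p = 2.35e-06). Acadl (-0.87 ± 0.07), Hadhb (-0.38 ± 0.05) and Hadh (-0.43 ± 0.06), enzymes of the oxidation cycle, fell too. Cpt2, which acts after Cpt1a (0.45 ± 0.07), and Ppard, a nuclear receptor that drives oxidation genes (0.69 ± 0.05), rose.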
